A study of Mus musculus with 2 samples.

Results

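A set of 10 genes of the tumour necrosis factor (TNF) system was examined in mouse neutrophils: 6 ligands of the TNF superfamily (Tnf, Ltb, Tnfsf14, Tnfsf13, Tnfsf13b and Tnfsf10), 3 of its receptors (Tnfrsf1a, Tnfrsf1b and Fas) and Tnfaip2, a gene named for its induction by TNF that is not itself a ligand or receptor. The genes were taken from a given list of symbols, and all 10 of 10 were found among 55536 annotated genes. No symbol had more than 1 gene identifier. The cells were labelled as neutrophils, primary cells from the spleen of virgin adult male B6CASTF1/J mice aged 59 days, a first-generation cross with C57BL/6 dams and CAST/EiJ sires. Total RNA was sequenced in 2 libraries, biological replicates 1 and 2 of a single group, with 300 ng of RNA going into each and ERCC spike-in RNA added. No treatment, genotype or second group was labelled, so the data give levels in these cells and the spread between the libraries, and no comparison of conditions. Both libraries carry separate biosample labels and 1 donor label, and whether separate animals were used is not stated. The spread between the libraries may therefore be technical.

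Ligands of the TNF superfamily are mostly made as membrane proteins that assemble into trimers, and proteases release some of them from the cell. Their receptors recruit TRAF adaptors that switch on NF-kB, and those with a death domain, such as TNFR1 and Fas, can also start cell death. Neutrophils respond to TNF with priming and altered survival, and they are known as a source of TNF and of the B cell survival factors BAFF and APRIL.

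Estimated reads on all listed features totalled 18836093 in replicate 1 and 18444369 in replicate 2. All 12 neutrophil markers reached a level of 1 TPM in both libraries, with medians of 1696 and 1777 TPM. TPM is a transcript level scaled per length and to the same total in each library. Of 10 T cell markers, 0 reached 1 TPM in both libraries. The median of the 10 B cell markers was 2.195 TPM in the first library and 1.255 TPM in the second, and that of the 7 monocyte markers was 122 and 115 TPM. Of 8 stromal and endothelial markers, Ccl19, Ccl21a, Cxcl13 and Madcam1 had 0 reads in both libraries, a count that allows up to 3 reads. The collagen genes Col1a1 (24.92 and 96.39 TPM) and Col1a2 (14.21 and 49.74 TPM) were present and were called higher in replicate 2 (adjusted p of at most 0.05 and at least 2-fold in the test described with the comparison of the libraries). The 8 erythroid markers summed to 48.48 TPM in replicate 1 and 117.9 TPM in replicate 2, and 6 of them were called higher there. The median log2 ratio of all 8 was 1.787. All 5 basophil and mast cell markers reached 1 TPM in both libraries, led by Prss34 at 54.61 and 56.28 TPM. Of 5 eosinophil markers, 4 did so, led by Prg2 at 54.47 and 36.77 TPM, and Ear6 was called lower in replicate 2. The libraries thus differed in markers of other cell types, and the part of this in the members' values was not tested. In a bulk sample a gene's level cannot be assigned to 1 cell type, and fewer cells of a type and less RNA per cell cannot be told apart.

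Of the 10 genes, 9 reached 1 TPM in both libraries, and Tnfsf10 did not. The receptor Tnfrsf1a was highest and Tnfaip2 next, followed in order of mean TPM by Tnfrsf1b, Ltb, Tnfsf13b, Tnf, Fas, Tnfsf14, Tnfsf13 and Tnfsf10. For each of the 9 neighbouring pairs in this order, both values of the higher gene lay above both values of the lower gene. The closest pair was Tnfrsf1b and Ltb, whose mean levels differed by 2.085 TPM, and these overlapped in a second deposited table of levels estimated straight from the reads. Protein-coding genes held 46.7% and 46.8% of all TPM in the libraries. Scaled to protein-coding genes alone, every level below would be 2.14 times as high in replicate 1 and 2.13 times as high in replicate 2, in the same order.

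**Figure D1:**
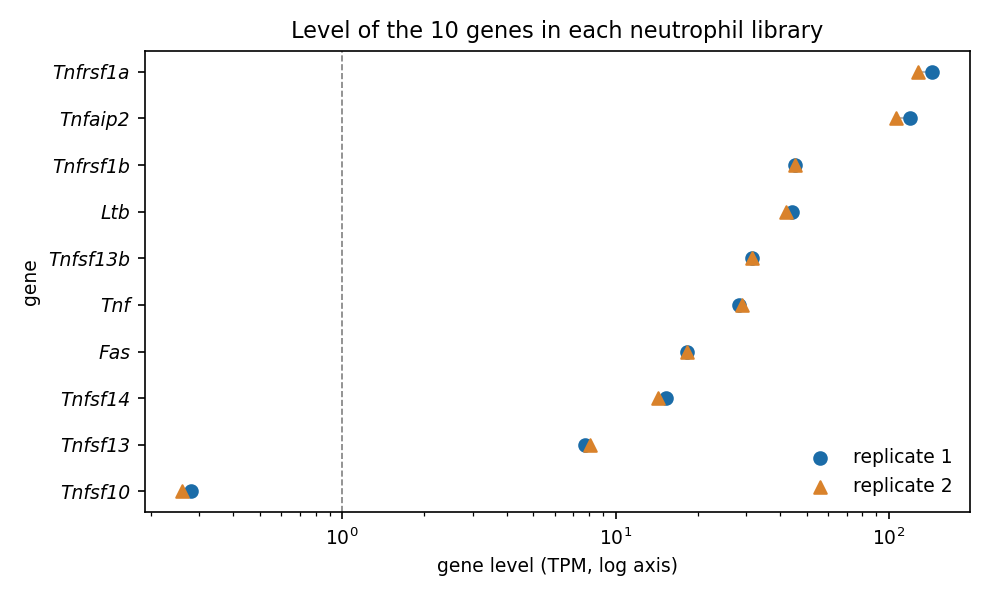
Level of each of the 10 genes in TPM on a log axis, with a circle for replicate 1 and a triangle for replicate 2; the dashed line marks 1 TPM. The paired symbols lie close together for every gene, from 0.28 and 0.26 TPM for Tnfsf10 up to 143.97 and 127.78 TPM for Tnfrsf1a.

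Tnf encodes the founding cytokine of the superfamily, which binds TNFR1 and TNFR2. Its gene (ENSMUSG00000024401.14) lies at chr17:35199381-35202007 on the minus strand of mm10. The 3′ untranslated region (UTR) of Tnf is known for AU-rich elements, which are bound by tristetraprolin, the product of Zfp36, and shorten the life of the RNA. The stretch of Tnf-201 with most copies of the motif TATTTAT is shown because it sets Tnf apart from the other 9 genes. It lies at chr17:35199678-35199707 on the minus strand, is written as DNA 5′ to 3′, and capitals mark bases within its 5 copies, some of which overlap:
Tnf 3′ UTR: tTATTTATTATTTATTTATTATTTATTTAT

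The whole 3′ UTR of Tnf-201, 764 bases long, held 8 copies of TATTTAT. The search read the transcript strand only and allowed copies to overlap. Of 18569 3′ UTRs, 1 per protein-coding gene from its highest coding transcript, 22.7% held the motif, and 16 held at least as many copies as Tnf, or 0.0862%. Among 2115 UTRs within 20% of the length of that of Tnf, 18.6% held the motif and only Tnf itself held at least 8. Of the other members, Tnfsf10 held 3 copies in 3998 bases, Tnfsf14 held 1 in 1019 bases and Tnfsf13b held 1 in 3631 bases. The coding transcripts of the other 6 genes held 0 copies in their 3′ UTRs. These letters are a description and show neither binding nor decay.

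Tnf RNA stood at 28.35 TPM in replicate 1 and 29.02 TPM in replicate 2, or 28.69 ± 0.474 TPM (SD, n = 2), from 826 and 815 reads. The libraries were nearly level, and Tnf was higher than 87.3% of 22028 protein-coding genes. Among 11 genes listed for the control of Tnf RNA, all 11 reached 1 TPM in both libraries. Zfp36 led them with 538.48 TPM in replicate 1 and 638.93 TPM in replicate 2. Its relative Zfp36l2 followed with 137.09 and 136.08 TPM, and Mapkapk2, a kinase that holds tristetraprolin in check, with 108.59 and 104.92 TPM. Of 7 genes for the release of membrane ligands, 6 reached 1 TPM in both libraries. The proprotein convertase gene Furin stood at 73.82 and 64.29 TPM, and Rhbdf2, which carries the TNF-cleaving protease to the cell surface, at 43.26 and 39.88 TPM. That protease's gene, Adam17, stood at 28.02 and 23.20 TPM, and its relative Adam10 at 36.80 and 37.22 TPM.

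Ltb encodes lymphotoxin beta, which anchors lymphotoxin alpha at the cell surface in a complex that binds the lymphotoxin beta receptor. Its gene (ENSMUSG00000024399.5, chr17:35194439-35196320, plus strand) ends 3060 bases from the end of Tnf, with no protein-coding gene between them. Ltb was the highest of all 18 superfamily ligands by mean level, with 44.34 TPM in replicate 1 and 41.93 TPM in replicate 2 (43.14 ± 1.7 TPM, SD, n = 2), from 813 and 721 reads. Lta, the gene of its partner, lies 1157 bases beyond Tnf on the same strand as Tnf. Lta had 3 reads in replicate 1 and 2 reads in replicate 2, or 0.12 and 0.09 TPM. Of the 3 neighbours at this locus, Ltb and Tnf were thus well above 1 TPM and Lta was near the limit of detection.

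B cells are known to express Ltb. All 8 B cell markers with enough reads to be tested had a log2 ratio of replicate 2 over replicate 1 below 0, with a median of -1.178 and a lowest value of -1.351. All 10 B cell markers together summed to 38.09 TPM in the first library and to 22.02 TPM in the second, and none of them was at 0 in both. The log2 ratio of Ltb was -0.137, and its adjusted p of 0.178 in the exact conditional binomial test did not pass 0.05. The part of B cell RNA in the level of Ltb was not tested.

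A pair of annotated coding transcripts of Ltb shared its reads differently in the deposited tables. Ltb-201 starts at position 35194439, and Ltb-203 starts at 35194626 and leaves out the first 86 bases of exon 2. The junctions are shown because they are where the models part: lower case is the end of exon 1 (chr17:35194669-35194683), and capitals are the start of exon 2 at chr17:35195050-35195064 in Ltb-201 and at chr17:35195136-35195150 in Ltb-203:
Ltb-201: gatcagggacgtcggGTTGAGAAGATCATT
Ltb-203: gatcagggacgtcggCCTCTCAGAGACTCC

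The first transcript table gave Ltb-203 39.28% of the TPM of Ltb in replicate 1 and 48.02% in replicate 2. The second transcript table gave it 0.00% in both libraries and Ltb-201 97.03% and 98.22%. Only 8.9% of 100-base windows of Ltb-203 occur in no other Ltb transcript. The split between these transcripts thus depended on the table used, while the level of the gene in the second table, 44.11 and 39 TPM, lay close to that in the first.

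Tnfsf14 encodes LIGHT, a ligand of the herpesvirus entry mediator (the product of Tnfrsf14) and of the lymphotoxin beta receptor. The gene (ENSMUSG00000005824.7, chr17:57189492-57194177, minus strand) has 1 annotated transcript. It stood at 15.24 TPM in replicate 1 and 14.31 TPM in replicate 2 (14.78 ± 0.658 TPM, SD, n = 2), from 504 and 457 reads. Both of its receptors were higher than the ligand in both libraries, with Tnfrsf14 at 45.16 and 53.80 TPM and Ltbr at 25.73 and 25.83 TPM.

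Tnfsf13 encodes APRIL, a survival factor of plasma cells that furin releases inside the cell. The gene (ENSMUSG00000089669.7) lies at chr11:69682846-69685784 on the minus strand. It stood at 7.74 TPM in replicate 1 and 8.08 TPM in replicate 2 (7.91 ± 0.24 TPM, SD, n = 2), from 193.02 and 194.45 expected reads. This level is uncertain, because Tnfsf13 shares exons with Tnfsfm13, a readthrough gene that begins upstream of its neighbour Tnfsf12. Tnfsfm13 was given 132.29 and 80.3 expected reads. The antisense gene Tnfsf13os also overlaps it, with 5 and 11 reads. No source used here gives the strand setting of the counting.

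Tnfsf13b encodes BAFF, which keeps mature B cells alive. Its gene (ENSMUSG00000031497.9) lies at chr8:10006467-10039072 on the plus strand. It stood at 31.45 TPM in replicate 1 and 31.56 TPM in replicate 2 (31.5 ± 0.0778 TPM, SD, n = 2), from 941 and 903 reads. This was 4.06 times the level of Tnfsf13 in replicate 1 and 3.91 times in replicate 2. Little of this level was assigned to transcripts annotated as coding.

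Of the 6 annotated Tnfsf13b transcripts, Tnfsf13b-201, Tnfsf13b-203 and Tnfsf13b-205 differ around exon 4, which is 57 bases long in Tnfsf13b-203 (chr8:10021373-10021429). Tnfsf13b-206 begins past this exon, at chr8:10031318. Tnfsf13b-203 is a full coding transcript. Tnfsf13b-201 skips exon 4, which leaves the form of the protein known as delta-BAFF. Tnfsf13b-205 reads on past the end of exon 4 for 58 more bases and meets a stop codon there, at chr8:10021459-10021461, and the annotation classes it as a target of nonsense-mediated decay. The exon and the sequences that tell these 3 transcripts apart are shown because Tnfsf13b-205 took the largest share of the gene's TPM and differs from the coding forms there. In the first line capitals mark exon 4 between the bases that flank it in the RNA, and in the others capitals mark what follows the last base in lower case:
Tnfsf13b exon 4: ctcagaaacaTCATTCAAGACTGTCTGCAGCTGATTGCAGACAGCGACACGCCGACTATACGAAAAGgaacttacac
Tnfsf13b-203: cgactatacgaaaagGAACTTACACATTTG
Tnfsf13b-201: tgaacctcagaaacaGAACTTACACATTTG
Tnfsf13b-205: cgactatacgaaaagGTAATGACCGGCCAT

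In Tnfsf13b-203 exon 4 (chr8:10021415-10021429 shown) joins exon 5 (chr8:10031310-10031324 shown). In Tnfsf13b-201 exon 3 (chr8:10014247-10014261 shown) joins the same start of exon 5, and in Tnfsf13b-205 the RNA runs on through chr8:10021415-10021444. Tnfsf13b-205 took 34.25% of the gene's TPM in replicate 1 and 31.04% in replicate 2. The coding transcript Tnfsf13b-203 took 6.36% and 6.49%, and Tnfsf13b-201 took 2.74% and 6.14%. The retained intron transcript Tnfsf13b-206 took 30.28% and 25.34%, and the retained intron transcript Tnfsf13b-204 11.63% and 10.60%. Tnfsf13b-202, a processed transcript with no reading frame, took 14.75% and 20.40%.

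Coding transcripts of Tnfsf13b thus held 9.1% and 12.6% of its TPM in the libraries. The second table gave them 8.0% and 9.6%. Counted as reads, which favours long transcripts, the coding share was 20.8% and 23.8%. Of 7384 protein-coding genes with at least 5 TPM and at least 2 transcripts, 1.29% had a lower mean coding share than Tnfsf13b, and the median gene had 75.9%. By the TPM of coding transcripts alone, Tnfsf13b stood at 2.86 and 3.99 TPM (3.425 ± 0.799 TPM, SD, n = 2) and moved from rank 5 to rank 9 of the 10 genes, below Tnfsf13 at 7.91 TPM. It also held rank 9 by the coding transcripts of the second table. Shares of transcripts that overlap this much are estimates: 14.5% of 100-base windows of Tnfsf13b-205 occur in no other transcript of the gene, against 67.9% for Tnfsf13b-203.

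Tnfsf10 encodes TRAIL, a death-inducing ligand. The gene (ENSMUSG00000039304.11, chr3:27317028-27342427, plus strand) had 14 reads in replicate 1 and 23 reads in replicate 2, or 0.28 and 0.26 TPM (0.27 ± 0.0141 TPM, SD, n = 2). In replicate 1 the shorter transcript Tnfsf10-202, 989 bases long, took 56.44% of the gene's TPM from 2.67 expected reads. In replicate 2 it took 0.00%. The near-equal TPM of the libraries thus went with unequal reads. The second table gave Tnfsf10 46.6 and 56.22 reads, or 0.4695 and 0.5601 TPM, also below 1 TPM. Tnfrsf10b, its death receptor in the mouse, stood at 0.36 and 0.50 TPM from 16 and 17 reads. The second table put Tnfrsf10b higher, at 1.892 and 1.759 TPM, so its level depended on the table.

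Across all 18 superfamily ligands, 7 reached 1 TPM in both libraries: Ltb, Tnfsf13b, Tnf, Tnfsf14, Tnfsf13, Tnfsf12 and Tnfsf9. Another 10 of the 18 had fewer than 10 reads over both libraries. Of these, Cd40lg, Cd70, Tnfsf18 and Tnfsf4, which act mainly between lymphocytes and the cells they meet, had 0 reads in both libraries. The listed members hold the 5 highest of the 18 ligands.

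**Figure D2:**
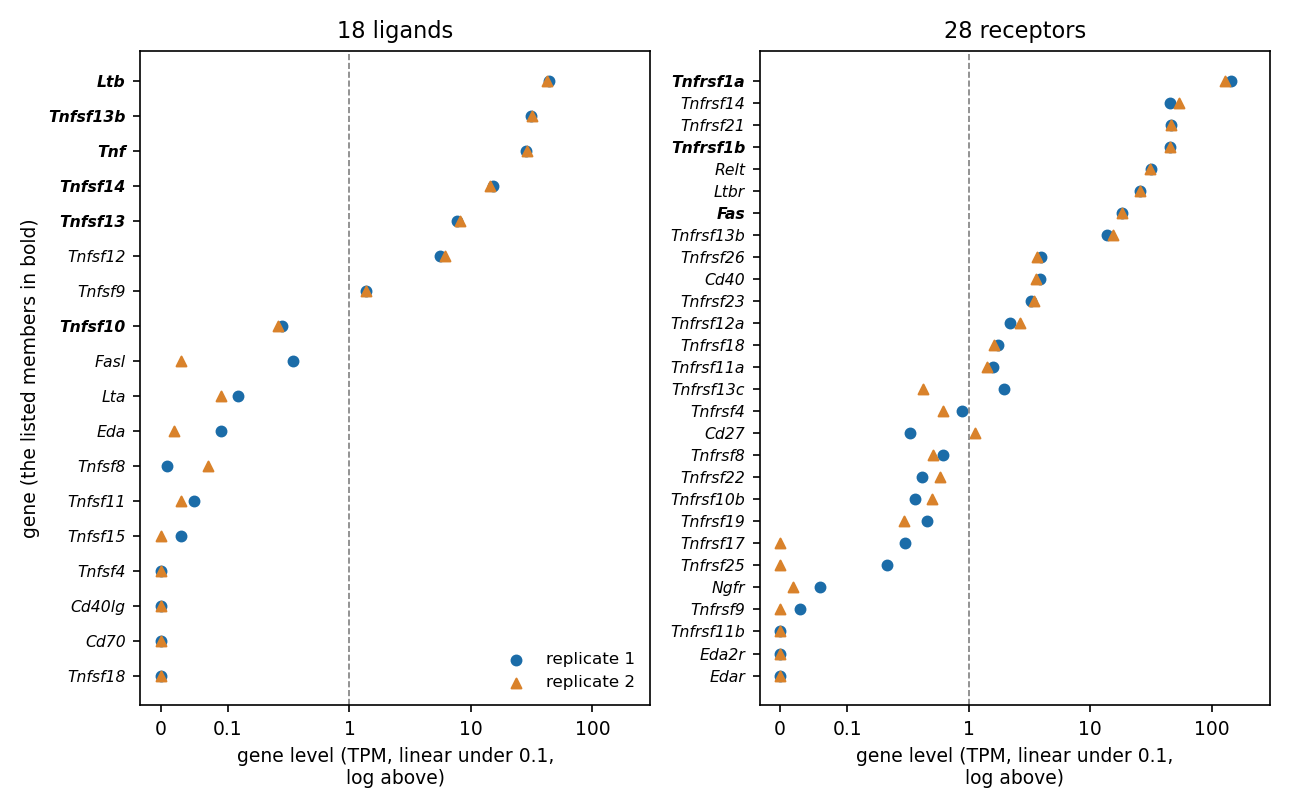
Level of 18 superfamily ligands (left) and 28 receptors (right) in TPM, on an axis that is linear under 0.1 and logarithmic above, with a circle for replicate 1, a triangle for replicate 2, bold names for the listed members and a dashed line at 1 TPM. A group of 7 ligands and 14 receptors lies above the line in both libraries, and 4 ligands and 3 receptors lie at 0 in both.

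Tnfrsf1a encodes TNFR1, the death domain receptor of TNF. The gene (ENSMUSG00000030341.17, chr6:125349362-125362484, plus strand) stood at 143.97 TPM in replicate 1 and 127.78 TPM in replicate 2 (135.9 ± 11.4 TPM, SD, n = 2), from 4967 and 4212 reads. It was the highest of 28 superfamily receptors and higher than 97.6% of protein-coding genes. Levels in the second table were 188.4 and 150.8 TPM. Coding transcripts held 88.4% and 88.0% of its TPM, with most of the rest in the retained intron transcript Tnfrsf1a-205 (10.51% and 11.17%). The second table gave that transcript 0.00% and gave 25.99% and 22.22% to Tnfrsf1a-202, which is classed under nonsense-mediated decay.

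Tnfrsf1b encodes TNFR2, which has no death domain and is bound best by TNF that is still in the membrane. The gene (ENSMUSG00000028599.10, chr4:145213463-145246870, minus strand) stood at 45.20 TPM in replicate 1 and 45.24 TPM in replicate 2 (45.22 ± 0.0283 TPM, SD, n = 2), from 3143 and 3046 reads. Tnfrsf1a was 3.19 times as high as Tnfrsf1b in replicate 1 and 2.82 times in replicate 2. Relative to their ligand Tnf, Tnfrsf1a was 5.08 and 4.4 times as high and Tnfrsf1b 1.59 and 1.56 times. Both receptors thus exceeded Tnf in both libraries, and coding transcripts held 98.7% and 99.0% of the TPM of Tnfrsf1b.

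Fas encodes the death receptor for Fas ligand. The gene (ENSMUSG00000024778.13, chr19:34290666-34327772, plus strand) stood at 18.19 TPM in replicate 1 and 18.31 TPM in replicate 2 (18.25 ± 0.0849 TPM, SD, n = 2), from 411 and 394 reads. The gene of its ligand, Fasl, had 3 reads in replicate 1 and 1 read in replicate 2. Receptor RNA was thus present where ligand RNA was near the limit of detection.

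Fas transcripts differed between the libraries in which form they held. Fas-201 is the full coding transcript, and Fas-203 lacks its exon 6 of 54 bases (chr19:34318783-34318836). Fas-204 adds an exon of 158 bases (chr19:34310012-34310169) after exon 2 and is classed under nonsense-mediated decay. The exon and the junctions are shown because 1 form was given reads in a single library. In the first line capitals mark exon 6 between its flanking bases in the RNA, and in the others capitals mark the bases after the junction:
Fas exon 6: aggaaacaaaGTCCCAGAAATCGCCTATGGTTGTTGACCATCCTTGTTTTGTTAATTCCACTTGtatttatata
Fas-201: tgttaattccacttgTATTTATATATCGAA
Fas-203: actgcaggaaacaaaTATTTATATATCGAA
Fas-204: aaccatgccaacctgGTCTCTCAGCTATCC

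The Fas-201 junction joins chr19:34318822-34318836 to chr19:34319310-34319324, and that of Fas-203 joins chr19:34318637-34318651 to the same start. The Fas-204 junction joins chr19:34307264-34307278 to chr19:34310012-34310026. Fas-201 took 53.37% of the gene's TPM in replicate 1 and 67.29% in replicate 2. Fas-203 was given 50.35 expected reads in replicate 1 and 0.00 in replicate 2, and the second table gave 34.48 and 0.00 reads. Only 7.6% of 100-base windows of Fas-203, and 1.0% of those of Fas-201, occur in no other Fas transcript, so this difference rests on few positions and was not tested. Fas-204 took 14.59% and 9.96%, and all coding transcripts together took 75.8% and 81.3%. The second table gave the coding transcripts of Fas 59.9% and 62.0%, so this share depended on the table.

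Of all 28 superfamily receptors, 14 reached 1 TPM in both libraries. After Tnfrsf1a, the highest were Tnfrsf14 and the death domain receptor gene Tnfrsf21 at 46.46 and 46.12 TPM, just above Tnfrsf1b by mean level. Eda2r, Edar and Tnfrsf11b, the last a secreted decoy receptor in bone, had 0 reads in both libraries. The 3 receptors of BAFF and APRIL were unlike each other. Tnfrsf13b, the gene of TACI, stood at 13.82 and 15.28 TPM, while Tnfrsf17, the gene of BCMA, had 4 reads in replicate 1 and 0 in replicate 2. Tnfrsf13c, the gene of the BAFF receptor of B cells, had 40 reads in replicate 1 and 14 in replicate 2, a log2 ratio of -1.445 with an adjusted p of 0.00407 in the exact conditional binomial test. It was the 1 receptor of 17 tested that passed both thresholds between the libraries, where 2.25% of all tested genes did and 0.684% as lower in replicate 2. The second table gave Tnfrsf13c 47.03 and 26.37 reads, a difference in reads that does not reach 2-fold. The tested B cell markers, with a median log2 ratio of -1.178, were lower in replicate 2 too. The part of B cell RNA in it was not tested.

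**Figure D3:**
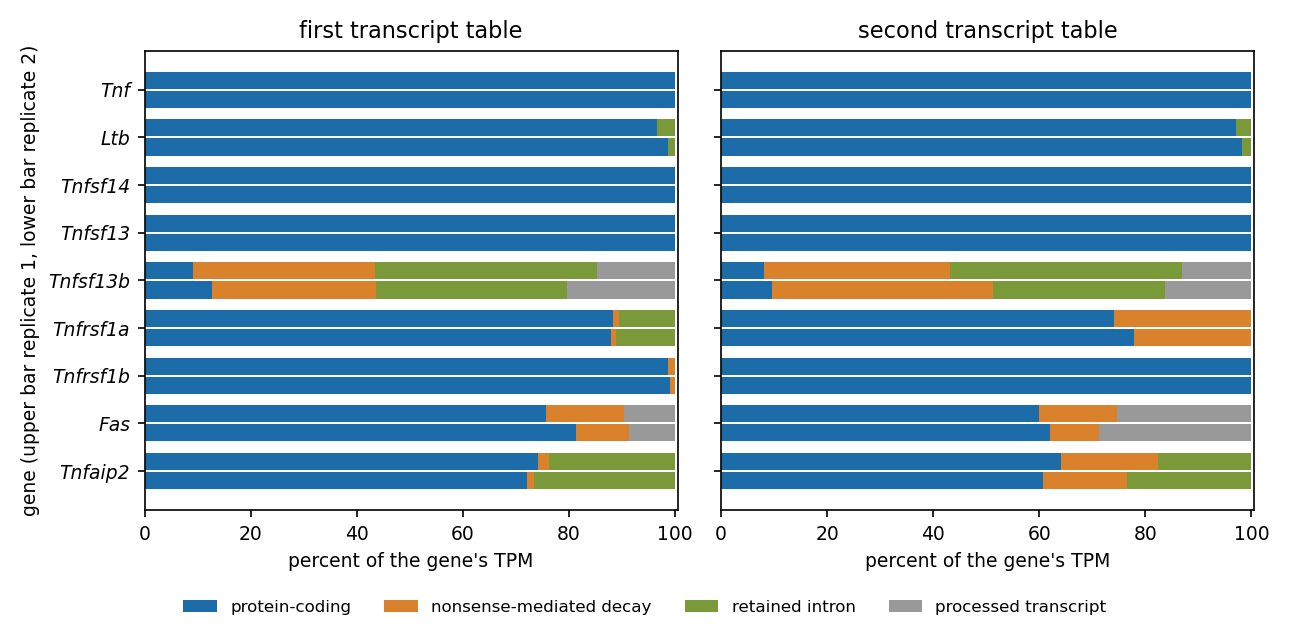
Share of each gene's TPM by annotated transcript class in the first (left) and second (right) transcript table for 9 of the 10 genes, with replicate 1 above replicate 2 (Tnfsf10 is left out for its low level). Coding transcripts, in blue, hold 9.1% and 12.6% of Tnfsf13b in the first table and at least 72.1% of each other gene there.

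Tnfaip2 encodes M-Sec, a protein related to exocyst subunits that takes part in tunnelling nanotubes between cells. The gene (ENSMUSG00000021281.15, chr12:111442469-111455018, plus strand) stood at 119.12 TPM in replicate 1 and 105.66 TPM in replicate 2 (112.4 ± 9.52 TPM, SD, n = 2), from 5184 and 4515 reads. It was higher than 97.1% of protein-coding genes and was second only to Tnfrsf1a among the 10. Its coding transcripts held 74.2% and 72.1% of its TPM in the first table and 64.2% and 60.7% in the second. The retained intron transcript with most of it held 10.42% and 12.95% in the first table. Tnfaip3, which encodes the NF-kB inhibitor A20, was the highest of 6 other genes named for TNF induction, with 102.21 TPM in replicate 1 and 130.20 TPM in replicate 2. Tnfaip3 lay below Tnfaip2 in replicate 1 and above it in replicate 2, so the order of these genes was not stable. Tnfaip8 followed at 60.99 and 56.56 TPM, and Tnfaip8l2 at 43.88 and 41.12 TPM.

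Downstream of the receptors, all 32 genes of TNF receptor signalling reached 1 TPM in both libraries. The NF-kB inhibitor gene Nfkbia, at 124.70 and 110.74 TPM, and Tnfaip3 were the highest, with Nfkbia above Tnfaip3 in replicate 1 and below it in replicate 2. The kinase gene Ikbkb followed at 70.67 and 68.44 TPM. Of these 32 genes, 0 passed the adjusted p with a 2-fold change, where 2.25% of all tested genes did. By adjusted p alone 2 of the 32 were higher and 7 lower in replicate 2. Over all tested genes 24.7% passed by adjusted p alone, 11.8% as higher and 12.9% as lower, so the 9 of 32 lay near that background. Among 17 NF-kB target genes, 16 reached 1 TPM in both libraries. Of the 16 tested, 0 passed the adjusted p with a 2-fold change, beside 2.25% of all tested genes. By adjusted p alone 1 was higher and 7 were lower in replicate 2, beside 24.7% of all tested genes in either direction. The log2 ratios of the 16 ran from -0.924 to 0.290, with a median of -0.168. The cytokine gene Il1b stood at 193.93 TPM in replicate 1 and 121.70 TPM in replicate 2, and the chemokine gene Cxcl2 at 196.31 and 121.30 TPM. Both were lower in replicate 2, at log2 ratios of -0.707 for Il1b and -0.712 for Cxcl2. Their adjusted p-values in the exact conditional binomial test were 6.52e-82 and 4.26e-73. That test holds counting error alone, and the libraries differed by more than that. The log2 ratio of Tnf in the same libraries was 0.017.

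Between the libraries, 9 of the 10 genes had the 50 summed reads needed for the test, an exact two-sided conditional binomial test with Benjamini-Hochberg adjustment over 12434 genes. It holds counting error alone and compares these 2 libraries. Of the 9 genes, 0 passed the adjusted p with a 2-fold change, where 2.25% of all tested genes did, 1.57% as higher and 0.684% as lower in replicate 2. By adjusted p alone 2 of the 9 were lower in replicate 2 and 0 were higher, where 24.7% of tested genes passed in either direction, and 12.9% as lower in replicate 2. The 2 were Tnfrsf1a, at 0.8698-fold (95% interval 0.8346 to 0.9064, adjusted p = 6.82e-10), and Tnfaip2, at 0.8933-fold (0.8582 to 0.9298, adjusted p = 5.32e-07). These are the 2 genes with most reads among the 10, and their changes were under 1.5-fold, as were those of 93% of tested genes.

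Of the 9 tested genes, 7 had a log2 ratio below 0 and 2 above 0, with a median of -0.024 beside -0.001 over all tested genes. The other 7 had adjusted p-values from 0.178 for Ltb to 0.927 for Fas. Their intervals were narrow: Tnfrsf1b was at 0.994-fold (0.9454 to 1.045), Tnf at 1.012-fold (0.9175 to 1.116) and Tnfsf13b at 0.9842-fold (0.8973 to 1.079). Tnfsf13, with fewest reads of the 9, was at 1.031-fold (0.8403 to 1.265). For Tnfsf10 the interval of 0.8309 to 3.541 could not tell a fall from a rise at this depth.

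**Figure D4:**
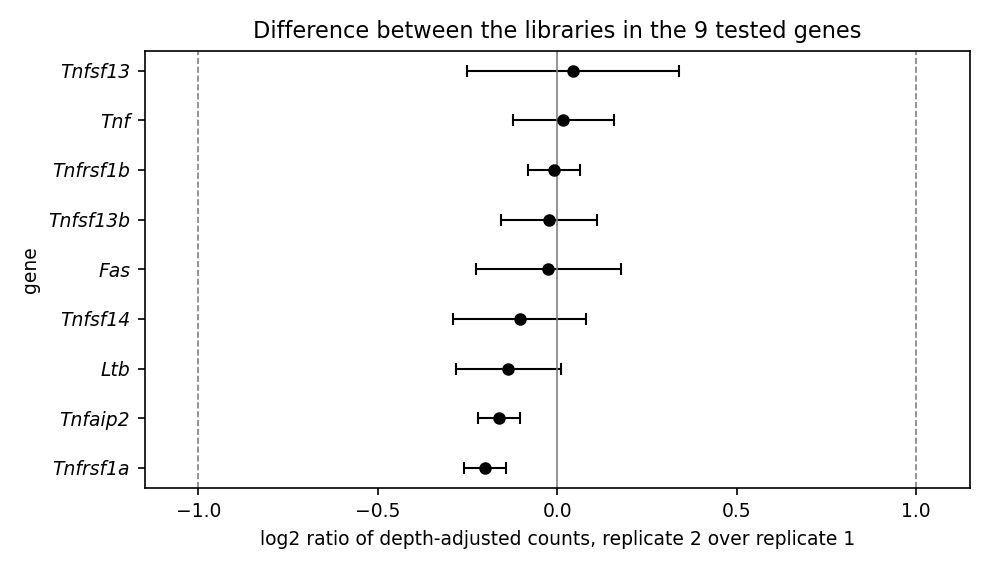
Log2 ratio of depth-adjusted counts, replicate 2 over replicate 1, for the 9 tested genes, with exact 95% intervals for counting error only; dashed lines mark 2-fold. All 9 intervals lie within the dashed lines, and those of Tnfrsf1a and Tnfaip2 lie wholly below 0.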

How the data were processed

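The deposited gene tables give expected counts, which are estimates and can be fractional, and TPM. Both derive from transcriptome alignments (build mm10, annotation M21), per the file lists that accompany the samples. A first transcript table from the same alignments adds the percent of a gene's TPM per transcript, as the authors deposited it. Another deposited transcript table, made straight from reads and called the second table here, holds estimated counts and TPM. No source used here names the aligner or the estimators. How reads of the CAST/EiJ allele fared against this reference was not tested.

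Fractional values made up 16.2% and 15.9% of the expected counts above 0 in the libraries, and counts were rounded for tests. Libraries were compared with an exact conditional binomial test (scipy 1.17.1) with the summed counts of annotated genes other than ribosomal RNA as offsets (18060581 and 17609100 reads). Genes needed a summed count of 50, and a call took an adjusted p no higher than 0.05 with a 2-fold ratio after 0.5 was added to each count. Between the libraries, chi-square per degree of freedom over genes was 14.5, so they are not 1 library deposited in duplicate. The test was checked on simulated counts that held counting error alone. The libraries differed by more than that, so the check does not show how the test behaves on them. Intervals are exact Clopper-Pearson intervals and cover counting error only. Motifs and sequences came from the transcripts of GENCODE M21. The tools were numpy 2.4.6, pandas 2.3.3 and matplotlib 3.10.9 in Python 3.11.15.

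The members and lists were chosen with earlier results of these data known. All 10 members are named, and of the other lists the 3 highest genes by mean TPM and any called gene. Ligands, receptors, neighbours and the protease that pair with a member are named too, chosen after their values were seen, as was the 5 TPM limit of the coding share comparison. Alternatives were edgeR 4.0.16 and DESeq2 1.42.0 scaling (R 4.3.3), ERCC totals, other count and fold thresholds, posterior mean TPM, the second table and each library alone.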

Additional observations from a re-analysis of the deposited data

How the results depend on the processing

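The count of members at 1 TPM in both libraries (9) and the count of members passing the adjusted p with a 2-fold change (0) were within 1.5 times of, or equal to, these values under every alternative run. The number of genes called over the whole table, 280, became 566 when 10 summed reads were enough, 560 with no such filter and 619 at 1.5-fold. Of 50 recomputed log2 ratios of members, 41 kept their sign and 9 turned it. With ERCC totals as offsets, Tnf stood at -0.062 and Tnfsf13 at -0.035, where the median of all tested genes moved to -0.079 and 3 members passed the adjusted p alone. As ratios of TPM, Tnfsf13b stood at 0.005, Tnfsf10 at -0.107, Tnfrsf1b at 0.001 and Fas at 0.009. With counts of the second table, Tnfsf13 stood at -0.009, Tnfrsf1b at 0.000 and Fas at 0.004. Apart from Tnfsf10, these ratios were all small, and the cause was not tested. Tnfsf13b was the 1 member of 10 with under 50% of its TPM in coding transcripts in both tables and in each library alone, a limit chosen after the values were seen. No paired analysis was possible because there was 1 group of 2 libraries. Depth limits Tnfsf10, Lta and Fasl, which had fewer than 50 summed reads.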
